A study of Homo sapiens with 18 samples.

Results

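The cadherin superfamily genes were described across 6 lines of HEK cells, an established human embryonic kidney line. Members were the genes whose symbol is CDH, PCDH or CLSTN followed by a number or by an A, B or G cluster code, and each was represented by its probe set with the highest mean over all arrays. This gave 37 of the 14884 genes with a named probe set: 19 genes of the PCDHB cluster, 13 non-clustered protocadherins, 3 calsyntenins and 2 cadherins, CDH23 and CDH26. Tests were run on genes with a log2 signal above 5.6 on at least 3 arrays, which 20 of the 37 members and 9686 of all named genes reached. CDH1 and CDH2, the textbook epithelial and neural cadherins, and the PCDHA and PCDHG clusters had no named probe set and were not analysed here.

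Total RNA was measured on 18 Affymetrix arrays, 3 per line, which the series describes as biological replicates. The labels give 3 lines as wild type for ATXN1L: the parental HEK cells and, as CRISPR controls, N4 and N8. The lines A10, A30 and B21 were labelled ATXN1L-KO. All were grown in DMEM with serum, and the labels give every line, the parental cells included, the same treatment of CRISPR, puromycin selection and isolation of single colonies. Each edited line is therefore 1 clone, and the line, not the array, is the replicate of a genotype. The sources used here do not give the guide or the edited part of ATXN1L. The ATXN1L signal lay between 7.11 and 7.21 in the wild-type line means and between 7.37 and 7.48 in the KO-labelled ones, so it was not lower in the edited lines, which are called here as labelled. Array medians lay between 5.09 and 5.18 on the log2 scale.

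Cadherins are calcium-dependent adhesion proteins built of extracellular cadherin repeats. Classical cadherins join cells through homophilic binding and are anchored to actin by catenins. Clustered protocadherins (PCDHA, PCDHB and PCDHG) lie in tandem arrays, each variable exon with a promoter of its own, and are chosen in combinations that give neurons a surface identity. CTCF and cohesin loop the chosen promoters to distant enhancers, and DNA methylation and SMCHD1 hold others silent. Non-clustered protocadherins such as PCDH9 and PCDH10 act in axon guidance and cell sorting, and calsyntenins are membrane proteins that link vesicles to kinesin.

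The PCDHB promoters are shown as a description of this cluster. The 9 letters GGTGGCGCT, searched on both strands, were the most shared among the PCDHB promoters, taken as 250 bases before to 50 after each gene's start in RefSeq (GRCh38.p14). They were present in 13 of the 14 PCDHB promoters with a sequence, all but PCDHB1, and in 169 of 27305 genes (0.619%). All 8 tested PCDHB genes with a promoter sequence held them. The letters were chosen because these promoters share them, so these counts follow from that choice. Whether they bear on the signals was not tested. The first base of the 9 letters lay 2 to 84 bases before the start. Windows of 30 bases on the plus strand of chromosome 5 are given for 5 tested genes, with the 9 letters in capitals. They lie at chr5:141094545-141094574 (PCDHB2), chr5:141182311-141182340 (PCDHB16), chr5:141192300-141192329 (PCDHB10), chr5:141213866-141213895 (PCDHB13) and chr5:141223264-141223293 (PCDHB14).
PCDHB2: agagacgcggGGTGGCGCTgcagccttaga
PCDHB16: gagaacgcgtGGTGGCGCTgcaggttaaga
PCDHB10: gaggccacacGGTGGCGCTgcaggctaaag
PCDHB13: gaggacgcgtGGTGGCGCTgcaggataaga
PCDHB14: ggagacacatGGTGGCGCTacaggataaga
The series title names CIC, a repressor that binds ATXN1L and is known to bind the octamers TGAATGAA and TGAATGGA. These octamers, searched on both strands, were in 0 of the 30 members with a promoter sequence, against 2.03% and 1.27% of all genes. The letters CACCTG, an E-box read by SNAI and ZEB factors, were in 5 of the 30 (CDH23, CLSTN3, PCDH1, PCDH15 and PCDHB1), against 24.1% of all genes. A match is a description of these letters and not of a bound site.

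Over the 6 lines, 13 of the 20 tested members differed between line means (limma's F test on arrays, adjusted p under 0.05, Benjamini-Hochberg over 9686 genes), where 43.5% of all tested genes did. The median range of the 6 line means was 0.93 (log2) over the tested members and 0.33 over all tested genes. A log2 difference of 1 is a 2-fold change. Ranges were widest for PCDH9, at 1.89, and reached 1.45 in the PCDHB cluster and 1.04 for CLSTN2.

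Between genotypes, no member and no gene at all passed when the means of 3 KO-labelled lines were compared with those of 3 wild-type lines (limma, 0.0% of 9686 genes called, 937 at an unadjusted p under 0.05). The line means of the genotypes did not overlap for 7 of the 20 tested members, where this held for 14.6% of all tested genes. The 1 member with higher means in all 3 KO-labelled lines was CLSTN2 (7.37% of all tested genes), and the 6 with lower means were CLSTN3, PCDHB8, PCDHB11, PCDHB13, PCDHB16 and PCDHB18P (7.22%). PCDHB18P differed by -0.82 ± 0.18 (SE, limma adjusted p = 0.310), PCDHB11 by -0.64 ± 0.14 (adjusted p = 0.310), PCDHB8 by -0.69 ± 0.18 (adjusted p = 0.347), CLSTN2 by 0.60 ± 0.16 (adjusted p = 0.408) and PCDHB16 by -0.60 ± 0.19 (adjusted p = 0.468). These 5 had the smallest p among the members. With 3 lines against 3, an exact two-sided permutation test of 1 gene cannot give a p below 0.1. Leaving out the line A10 gave CLSTN2 a difference of 0.78 (adjusted p = 0.0365), and treating the arrays as replicates with the line as a random block gave it an adjusted p of 0.0217. Over the alternatives, its adjusted p ran from 0.0217 to 0.798.

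The lines were then compared one at a time, on arrays. Such tests measure the spread among cultures of 1 line and not that among separately edited clones, and A10, A30 and B21 were set against the same wild-type mean, so their differences share it. In A30, 11 of the 20 tested members fell and 2 rose (CLSTN2 and CDH23, the latter tested only through its A30 arrays), with 29.3% of all tested genes called (16.3% lower and 12.9% higher). In A10, 3 fell and 2 rose, with 8.4% of all tested genes called (4.56% lower and 3.84% higher). In B21, 3 fell and 1 rose, with 16.0% called (7.2% lower and 8.82% higher). Among the controls, N8 differed from the parental cells for 4 members, 2 higher and 2 lower, with 14.7% of all tested genes called (7.67% higher and 7.03% lower), and N4 for 0 (limma, 0.547% of all tested genes called, 1276 at an unadjusted p under 0.05). With the replicate number as a block, 9 members were called in N8 (22.2% of all tested genes): PCDHB14, PCDHB18P, CLSTN2, PCDH18 and CDH26 joined the 4, with adjusted p-values of 0.0235, 0.0113, 0.0326, 0.0146 and 0.0406. In B21 the 4 calls held with this block, and CLSTN3 joined them (22.8% of all tested genes).

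**Figure D1:**
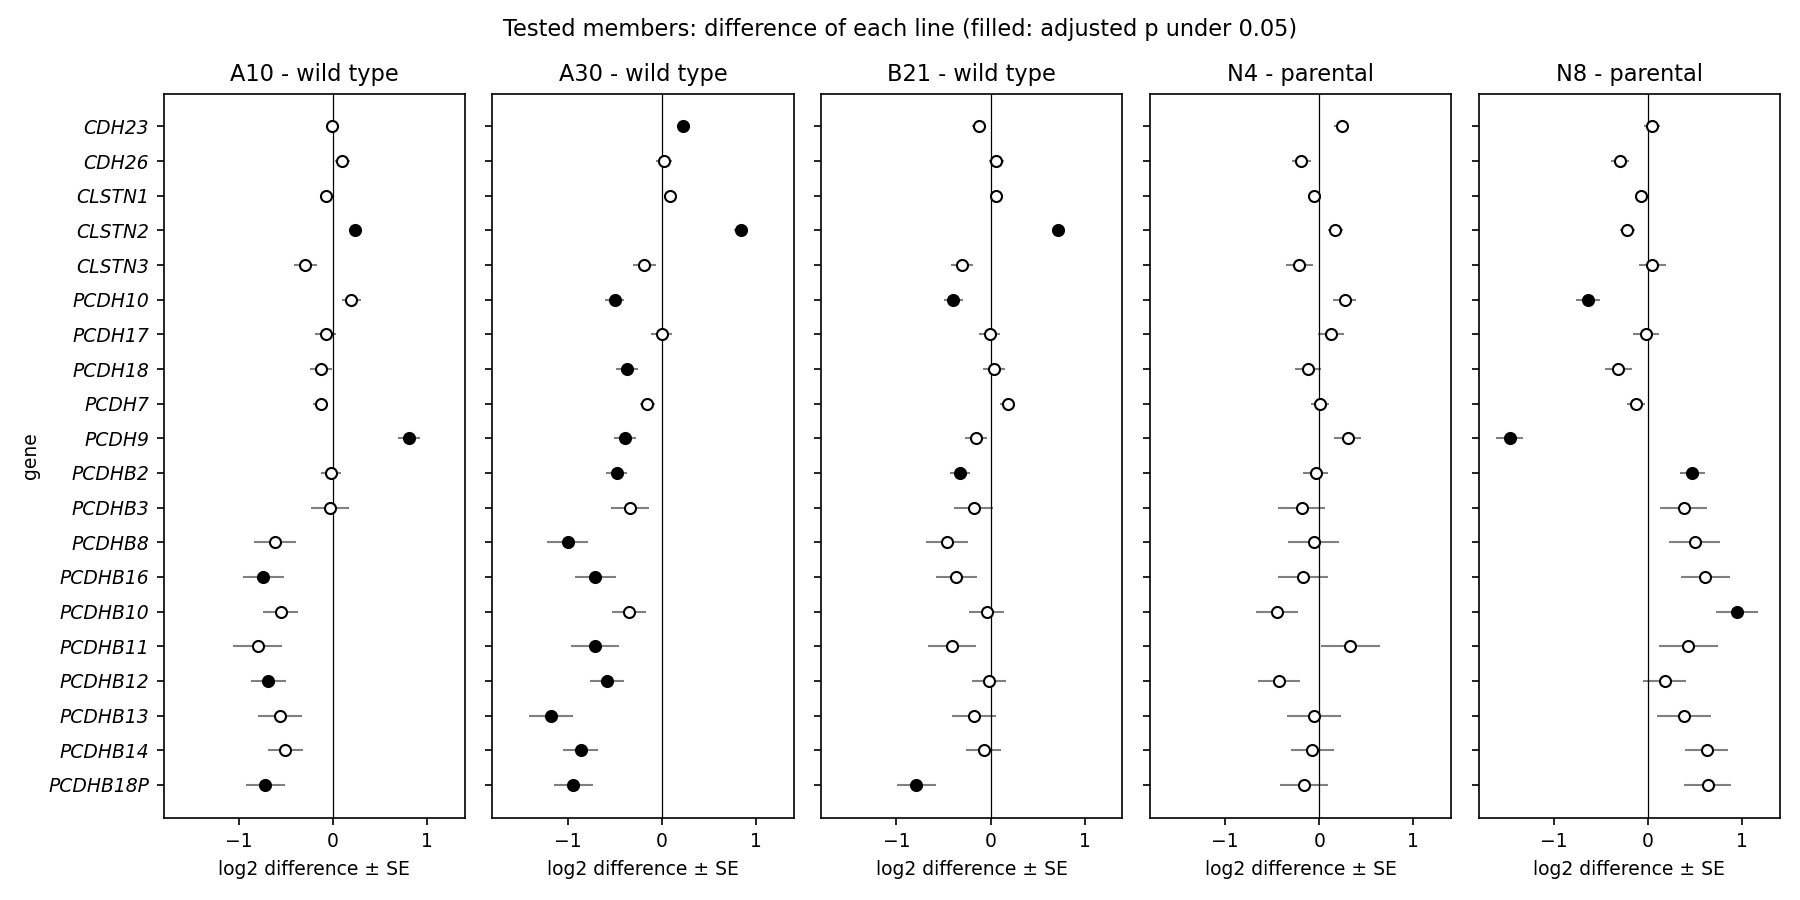
Log2 difference of each line from its reference for the 20 tested members, with limma standard errors; the reference is the mean of the 3 wild-type lines for A10, A30 and B21, and the parental cells for both controls. Filled points passed an adjusted p of 0.05. The PCDHB genes lie left of 0 in A10, A30 and B21 and right of 0 in N8, and CLSTN2 lies right of 0 in A30 and B21.

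In the PCDHB cluster, A30 was low and the wild-type control N8 was high. Of the 10 tested PCDHB genes, 8 fell in A30 (PCDHB2, PCDHB8, PCDHB11, PCDHB12, PCDHB13, PCDHB14, PCDHB16 and PCDHB18P), 3 fell in A10 (PCDHB12, PCDHB16 and PCDHB18P) and 2 fell in B21 (PCDHB2 and PCDHB18P). In N8, PCDHB2 and PCDHB10 rose, and with the replicate block PCDHB14 (0.63 ± 0.18, SE) and PCDHB18P (0.63 ± 0.16) did too. The median difference over the 10 was -0.71 in A30, -0.59 in A10, -0.25 in B21, 0.48 in N8 and -0.12 in N4, where the medians over all tested genes lay between -0.01 and 0.01. PCDHB genes encode protocadherins that form adhesive complexes at the cell surface. PCDHB18P is annotated as a pseudogene of the cluster.

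PCDHB13 had signals of 5.42, 5.47 and 5.34 in the parental cells, 5.83, 5.49 and 4.74 in N4, 5.82, 5.74 and 5.82 in N8, 5.64, 4.84 and 4.38 in A10, 4.67, 4.03 and 4.32 in A30, and 5.85, 4.99 and 5.19 in B21. All A30 arrays lay below all wild-type arrays, while the A10 and B21 arrays overlapped the wild-type ones. Its difference in A30 was -1.18 ± 0.24 (SE, limma adjusted p = 0.00119). PCDHB13 exceeded the filter on 6 of 18 arrays, and background was not measured.

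PCDHB8 had signals of 6.51, 6.07 and 5.81 in the parental cells, 6.73, 5.53 and 5.95 in N4, 6.85, 6.81 and 6.22 in N8, 6.21, 5.40 and 5.36 in A10, 5.07, 5.27 and 5.48 in A30, and 5.93, 5.80 and 5.72 in B21. The A30 arrays lay below every wild-type array, by a small margin to N4. Its difference in A30 was -1.002 ± 0.222 (SE, limma adjusted p = 0.00258).

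PCDHB18P had signals of 7.42, 7.05 and 7.13 in the parental cells, 7.51, 6.69 and 6.91 in N4, 8.38, 7.61 and 7.51 in N8, 7.15, 6.09 and 6.67 in A10, 6.47, 6.26 and 6.52 in A30, and 6.72, 6.57 and 6.41 in B21. The A30 arrays lay below all wild-type arrays, and 1 array each of A10 and B21 overlapped them. Of the 10 tested PCDHB genes, PCDHB18P alone passed in all 3 KO-labelled lines. It fell by 0.94 ± 0.21 (SE) in A30, 0.72 ± 0.21 in A10 and 0.79 ± 0.21 in B21, with limma adjusted p-values of 0.00235, 0.0388 and 0.0140. With the replicate block, the B21 value was 0.000597. Against the parental cells and N4 alone, PCDHB18P did not pass in A10 (-0.48, adjusted p = 0.193, range 0.00217 to 0.289 over its alternatives) or B21 (-0.55, adjusted p = 0.0939, range 0.000555 to 0.113), and it passed in A30.

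PCDHB14 had signals of 5.92, 5.35 and 5.63 in the parental cells, 5.88, 5.03 and 5.77 in N4, 6.62, 6.11 and 6.05 in N8, 5.79, 5.14 and 5.00 in A10, 4.78, 4.94 and 5.15 in A30, and 5.78, 5.58 and 5.87 in B21. N8 was above every other array and A30 overlapped 1 array of N4. Its difference in A30 was -0.86 ± 0.19 (SE, limma adjusted p = 0.00216).

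PCDHB2 had signals of 7.77, 7.54 and 7.75 in the parental cells, 7.81, 7.58 and 7.55 in N4, 8.45, 7.98 and 8.04 in N8, 8.09, 7.64 and 7.69 in A10, 7.34, 7.25 and 7.46 in A30, and 7.61, 7.36 and 7.54 in B21. The A30 arrays lay below all wild-type arrays, and the A10 arrays lay among them. PCDHB2 fell by 0.48 ± 0.11 (SE) in A30 (limma adjusted p = 0.00297) and by 0.33 ± 0.11 in B21 (adjusted p = 0.0492), and rose by 0.47 ± 0.13 in N8 (adjusted p = 0.0248). The B21 call was lost under 18 of 30 alternatives, with -0.16 against the parental cells and N4 (adjusted p = 0.370, range 0.00521 to 0.409). The N8 call was lost under 6 of 28, with 0.32 without replicate 1 of N8 (adjusted p = 0.110, range 0.00228 to 0.118). With the replicate block, the limma adjusted p of PCDHB2 was 0.00521 in B21 and 0.00228 in N8.

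PCDHB10 had signals of 6.05, 5.61 and 5.75 in the parental cells, 5.64, 4.86 and 5.56 in N4, 7.23, 6.63 and 6.38 in N8, 5.79, 5.20 and 5.24 in A10, 5.39, 5.61 and 5.85 in A30, and 5.93, 6.05 and 5.80 in B21. N8 stood above all other arrays, and the other 5 lines overlapped. PCDHB10 was higher in N8 than in the parental cells by 0.94 ± 0.22 (SE, limma adjusted p = 0.00990).

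The other tested members of the cluster were PCDHB3, PCDHB11, PCDHB12 and PCDHB16. PCDHB16 fell in both A30 (-0.71 ± 0.22, SE, limma adjusted p = 0.0196) and A10 (-0.74 ± 0.22, adjusted p = 0.0422). So did PCDHB12, which fell by 0.58 ± 0.18 in A30, with an adjusted p of 0.0237, and 0.69 ± 0.18 in A10, with an adjusted p of 0.0276. For PCDHB16, 15 of 29 alternatives lost the A10 call, with -0.44 without replicate 2 of A10 (adjusted p = 0.309, range 0.000401 to 0.309), and 4 of 29 lost the A30 call, with -0.42 without replicate 1 of A30 (adjusted p = 0.198, range 0.00433 to 0.198). For PCDHB12, 5 of 30 alternatives lost the A10 call, among them those without replicate 2 or replicate 3 of A10 (adjusted p = 0.195 and 0.156, range 0.00430 to 0.195), and 4 of 30 lost the A30 call, among them those without replicate 1 or replicate 3 of A30 (adjusted p = 0.0544 and 0.155, range 0.00991 to 0.155). PCDHB11 fell by 0.71 ± 0.26 in A30 (adjusted p = 0.0469), a call that 18 of its 30 alternatives lost. PCDHB3 passed in no line, with differences of -0.34 ± 0.20 in A30 and 0.38 ± 0.25 in N8.

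The highest line was shared across the tested genes of the cluster, and the order of the other lines was not. N8 had the highest line mean for 10 of the 10 tested PCDHB genes and for 16 of all 19, where N8 was highest for 20.2% of all tested genes. A30 had the lowest mean for 6 of the 10 (22.6% of all tested genes) and 8 of all 19, A10 for 3 of the 10 (16.7%) and N4 for 1 (15.2%). A10 was lowest for PCDHB11, PCDHB12 and PCDHB16 and lay above the parental mean for PCDHB2 and PCDHB3. Averaged over the 10 tested genes, the signal was 6.48, 6.14 and 6.15 in the parental arrays, 6.45, 5.88 and 6.06 in N4, 7.19, 6.61 and 6.53 in N8, 6.39, 5.55 and 5.65 in A10, 5.62, 5.64 and 5.76 in A30, and 6.22, 6.03 and 6.06 in B21. Replicate 1 of N8 was the highest array, B21 lay within the range of the parental and N4 arrays, and replicate 1 of A10 lay within it too. PCDHB coding exons are near-identical in places, so a probe set may read more than 1 of them, and the genes are not independent of each other.

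**Figure D2:**
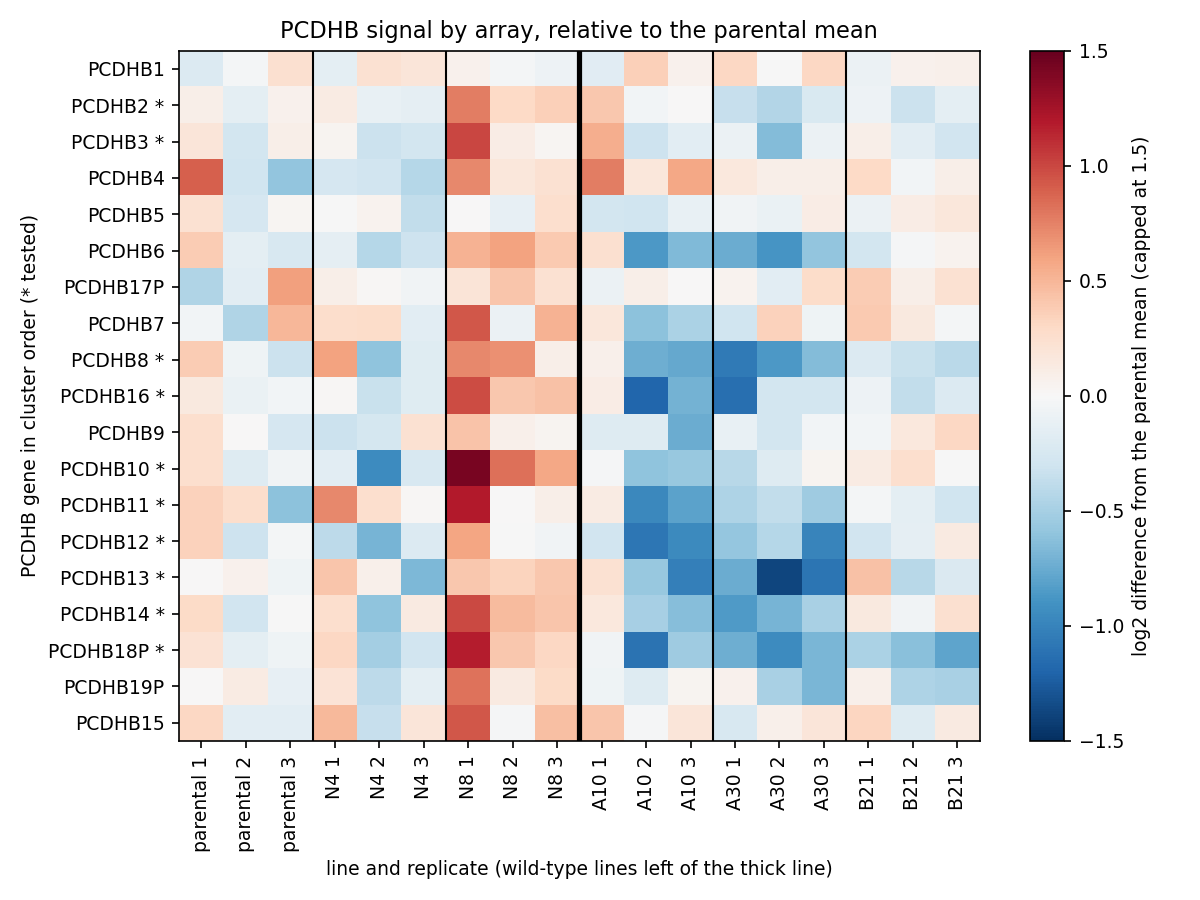
Signal of the 19 PCDHB genes, in their order along the cluster (vertical), on each of the 18 arrays (horizontal), as log2 difference from the mean of the 3 parental arrays; a star marks the 10 tested genes. The N8 columns are mostly red, the A30 columns and replicates 2 and 3 of A10 mostly blue, and replicate 1 of A10 is close to the parental arrays.

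The size of the PCDHB differences depended on which wild-type lines served as reference. All 10 tested genes lay below the mean of the 3 wild-type lines in each KO-labelled line. Below the parental cells lay 10 of them in A30, 8 in A10 and 8 in B21, with medians of -0.61, -0.47 and -0.14. With the parental cells and N4 as reference, leaving out N8, the calls among all tested members numbered 10 in A30 (29.2% of all tested genes), 3 in B21 (17.4%) and 0 in A10 (9.17%, limma). In A30, PCDHB8, PCDHB13, PCDHB14 and PCDHB18P passed under every alternative run that tested them.

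Replicate 1 moved with this cluster. With the line as a term, 8 of the 20 tested members were higher in replicate 1 than in replicates 2 and 3 and 0 were lower, where 18.6% of all tested genes differed (8.56% higher). PCDHB2, PCDHB3, PCDHB8, PCDHB11, PCDHB13 and PCDHB18P were among the 8, with PCDHB11 higher by 0.57 ± 0.14 (SE, limma adjusted p = 0.00898) and PCDHB18P by 0.49 ± 0.10 (adjusted p = 0.00384). Every replicate number was present in each line. In replicates 2 and 3 alone, PCDHB18P differed by -0.76 in A30 and PCDHB8 by -0.69, against -1.30 and -1.63 in replicate 1 alone. Replicate 1 of A10 stood apart from its own line, at r = 0.01 and 0.14 across genes with the other A10 arrays after the mean of each gene was removed, and at 0.38 with replicate 1 of the parental cells. Without replicate 1 of A10, 9 members were called in A10 in place of 5, and without replicate 2 or replicate 3 of A10 1 was. The share of all tested genes called moved the same way, from 8.4% to 11.8%, 3.38% and 3.4%. What sets replicate 1 apart was not tested.

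The 40 tested genes nearest to the cluster, 20 on each side from EGR1 to JAKMIP2, had median differences of 0.06 in A30, 0.02 in A10, -0.10 in B21, 0.06 in N4 and 0.03 in N8. In A30, 15 of these 40 were lower and in A10 16, beside 10 of the 10 tested PCDHB genes in each. In B21, 32 of the 40 were lower, in the same direction as the PCDHB genes and by a smaller median.

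Among A10, A30 and B21, 8 of the 20 tested members differed (limma's F test, 25.8% of all tested genes), and among the wild-type lines 5 did (16.1%). With the replicate block, 9 members differed among the wild-type lines (25.1%). Of the non-clustered protocadherins, 5 of 13 were tested: PCDH7, PCDH9, PCDH10, PCDH17 and PCDH18. PCDH9, PCDH10 and PCDH18 fell in at least 1 line, and PCDH9 rose in A10. PCDH7 differed among the KO-labelled lines, with means of 7.53 in A10, 7.51 in A30 and 7.84 in B21 (range 0.34, limma F test adjusted p = 0.0220). Its 40 tested neighbours on chromosome 4, from MED28 to SHISA3, had medians of -0.16 in A10, -0.29 in A30 (38 of 40 lower) and 0.00 in B21. Its difference over the 6 lines was lost under 17 of 28 alternatives, with an adjusted p of 0.284 after centring on neighbours (range 0.0239 to 0.284). PCDH17 passed in no comparison.

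PCDH9, a protocadherin of neuronal contacts, had signals of 8.96, 8.88 and 8.91 in the parental cells, 9.47, 9.06 and 9.12 in N4, 7.70, 7.37 and 7.27 in N8, 9.03, 9.43 and 9.55 in A10, 8.21, 8.05 and 8.15 in A30, and 8.61, 8.21 and 8.31 in B21. Arrays of N8 lay below all others, A30 and B21 lay between N8 and the rest, and the A10 arrays overlapped those of N4. The genotype means differed by 0.09, while lines of a genotype spanned ranges of 1.77 among the wild-type lines (limma F test adjusted p = 3.29e-06) and 1.20 among the KO-labelled lines (adjusted p = 3.41e-05). N8 was lower than the parental cells by -1.47 ± 0.14 (SE, limma adjusted p = 7.59e-06).

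Because N8 is part of the wild-type mean, the PCDH9 differences of the KO-labelled lines depended on it. Against the 3 wild-type lines, PCDH9 was higher in A10 by 0.81 ± 0.12 (SE, limma adjusted p = 0.000393) and lower in A30 by -0.39 ± 0.12 (adjusted p = 0.0177). Against the parental cells and N4, the A10 difference was 0.27 (adjusted p = 0.199, the highest over its alternatives, which began at 6.32e-06), and the A30 difference was -0.93. B21 differed from the 3 wild-type lines by -0.15 ± 0.12 (adjusted p = 0.427), while all its arrays lay below every parental and N4 array. The A30 call was lost without replicate 2 of A30 (-0.35, adjusted p = 0.0868), at a 1.5-fold minimum and after centring on the neighbouring genes (-0.25, adjusted p = 0.144), within a range of 3.71e-05 to 0.144. The 40 tested neighbours of PCDH9 on chromosome 13, from RCBTB1 to GPC6, had a median of -0.22 in N8, 0.04 in A10, -0.12 in A30 and -0.22 in B21. A second PCDH9 probe set read between 1.70 and 2.27 on all arrays and was not used.

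PCDH10, a protocadherin of axon growth and cell movement, had signals of 7.23, 7.17 and 7.25 in the parental cells, 7.51, 7.45 and 7.50 in N4, 6.78, 6.51 and 6.45 in N8, 7.64, 7.03 and 7.19 in A10, 6.48, 6.80 and 6.50 in A30, and 6.73, 6.69 and 6.68 in B21. N8, A30 and B21 overlapped and lay below all arrays of the parental cells, N4 and A10. PCDH10 was lower in A30 by -0.50 ± 0.10 (SE, limma adjusted p = 0.00137), in B21 by -0.39 ± 0.10 (adjusted p = 0.0138) and, against the parental cells, in N8 by -0.64 ± 0.13 (adjusted p = 0.00298). The B21 call was lost without replicate 2 of B21 (adjusted p = 0.0629) or replicate 3 of B21 (adjusted p = 0.0676), within alternatives running from 0.000591 to 0.0676. With the replicate block, the limma adjusted p of PCDH10 was 0.00913 in B21 and 0.00201 in N8.

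PCDH18, a protocadherin known from embryonic tissue, had signals of 7.97, 7.53 and 7.70 in the parental cells, 7.83, 7.52 and 7.49 in N4, 7.70, 7.35 and 7.20 in N8, 7.60, 7.37 and 7.41 in A10, 7.35, 6.97 and 7.32 in A30, and 7.75, 7.53 and 7.60 in B21. A30 was low but overlapped N8. The A30 difference was -0.37 ± 0.12 (SE, limma adjusted p = 0.0215). Without replicate 2 of A30 it was -0.25 (adjusted p = 0.173), within alternatives running from 0.000580 to 0.494.

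PCDH10 and PCDH18 are next to each other among the tested genes of chromosome 4, and in A30 their surroundings were lower as well. Of the 40 tested neighbours from NDNF to ARHGAP10, 40 were lower in A30, with a median of -0.49. Each line was then centred on the running median of 41 tested genes, a window that includes the gene itself and other members. After that, the A30 difference was -0.01 for PCDH10 (adjusted p = 0.964) and 0.13 for PCDH18 (adjusted p = 0.494), and neither passed. In N8, 38 of the 40 were lower with a median of -0.20, and centring left PCDH10 at -0.41 (adjusted p = 0.0681). In B21, the neighbours had a median of 0.00 while PCDH10 differed by -0.39. The reason for these shared shifts was not tested.

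**Figure D3:**
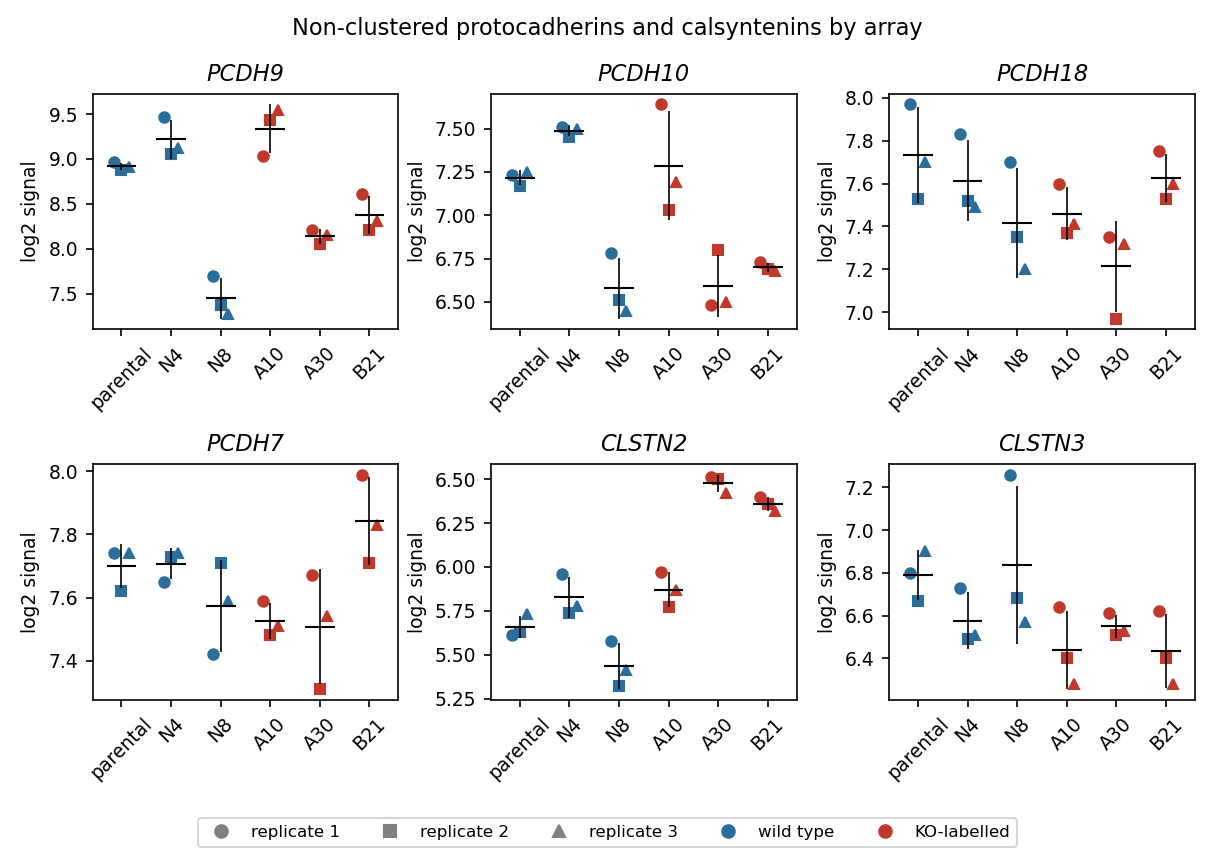
Log2 signal of 4 non-clustered protocadherins and 2 calsyntenins on each array, by line; blue lines are wild type and red lines KO-labelled, marker shapes give the replicate number, and bars show the mean and SD of the 3 arrays. PCDH9 is lowest in N8, PCDH10 is low in N8, A30 and B21, and CLSTN2 is high in A30 and B21, where its 6 arrays lie between 6.32 and 6.51.

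All 3 calsyntenins were tested, and CLSTN2 changed. CLSTN2, a postsynaptic membrane protein, had signals of 5.61, 5.63 and 5.73 in the parental cells, 5.96, 5.74 and 5.78 in N4, 5.58, 5.32 and 5.41 in N8, 5.97, 5.77 and 5.87 in A10, 6.51, 6.50 and 6.42 in A30, and 6.40, 6.36 and 6.32 in B21. The A30 and B21 arrays lay above all others without overlap, and A10 overlapped N4. CLSTN2 was higher in A30 by 0.84 ± 0.07 (SE, limma adjusted p = 1.71e-07) and in B21 by 0.72 ± 0.07 (adjusted p = 1.71e-06), and these 2 calls passed under all 29 alternatives run for each.

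The CLSTN2 difference in A10 was 0.23 ± 0.07 (SE, limma adjusted p = 0.0387), and 15 of 29 alternatives lost the call. It was 0.18 without replicate 1 of A10 (adjusted p = 0.131) and 0.13 against the parental cells and N4 (adjusted p = 0.287), within a range of 0.00614 to 0.287. The KO-labelled lines differed from each other by up to 0.61 (limma F test adjusted p = 8.76e-05). The 40 tested neighbours of CLSTN2 on chromosome 3, from CDV3 to WWTR1, had medians of -0.28 in A30 and -0.18 in B21, opposite in sign to CLSTN2.

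CLSTN3, which acts at synapses, had line means of 6.79 ± 0.12 (SD, n = 3 arrays) in the parental cells, 6.58 ± 0.13 in N4, 6.84 ± 0.37 in N8, 6.44 ± 0.18 in A10, 6.55 ± 0.05 in A30 and 6.43 ± 0.17 in B21. Its KO-labelled means lay just below its wild-type means, and it passed in no single line in the main fit. With the replicate block it passed in B21 (-0.30 ± 0.09, SE, limma adjusted p = 0.0211). CLSTN1, a kinesin adaptor of axonal vesicles, had line means between 9.15 and 9.32, with no call in any comparison.

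The 2 members with a CDH symbol were CDH23, the long tip-link cadherin of hair cells, and CDH26. CDH23 had a line mean of 5.71 ± 0.08 (SD, n = 3 arrays) in A30 and between 5.35 and 5.62 in the other lines. It exceeded the filter on 5 of 18 arrays, 3 of A30 (5.75, 5.75 and 5.62) and 2 of N4, and without the A30 arrays it would not have been tested. Its calls, as higher in A30, over the 6 lines and among the KO-labelled lines, are therefore counted and not given as results. CDH26 had line means between 5.57 in N8 and 5.86 in the parental cells and passed in no comparison, except in N8 with the replicate block (-0.30 ± 0.10, SE, limma adjusted p = 0.0406).

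**Figure D4:**
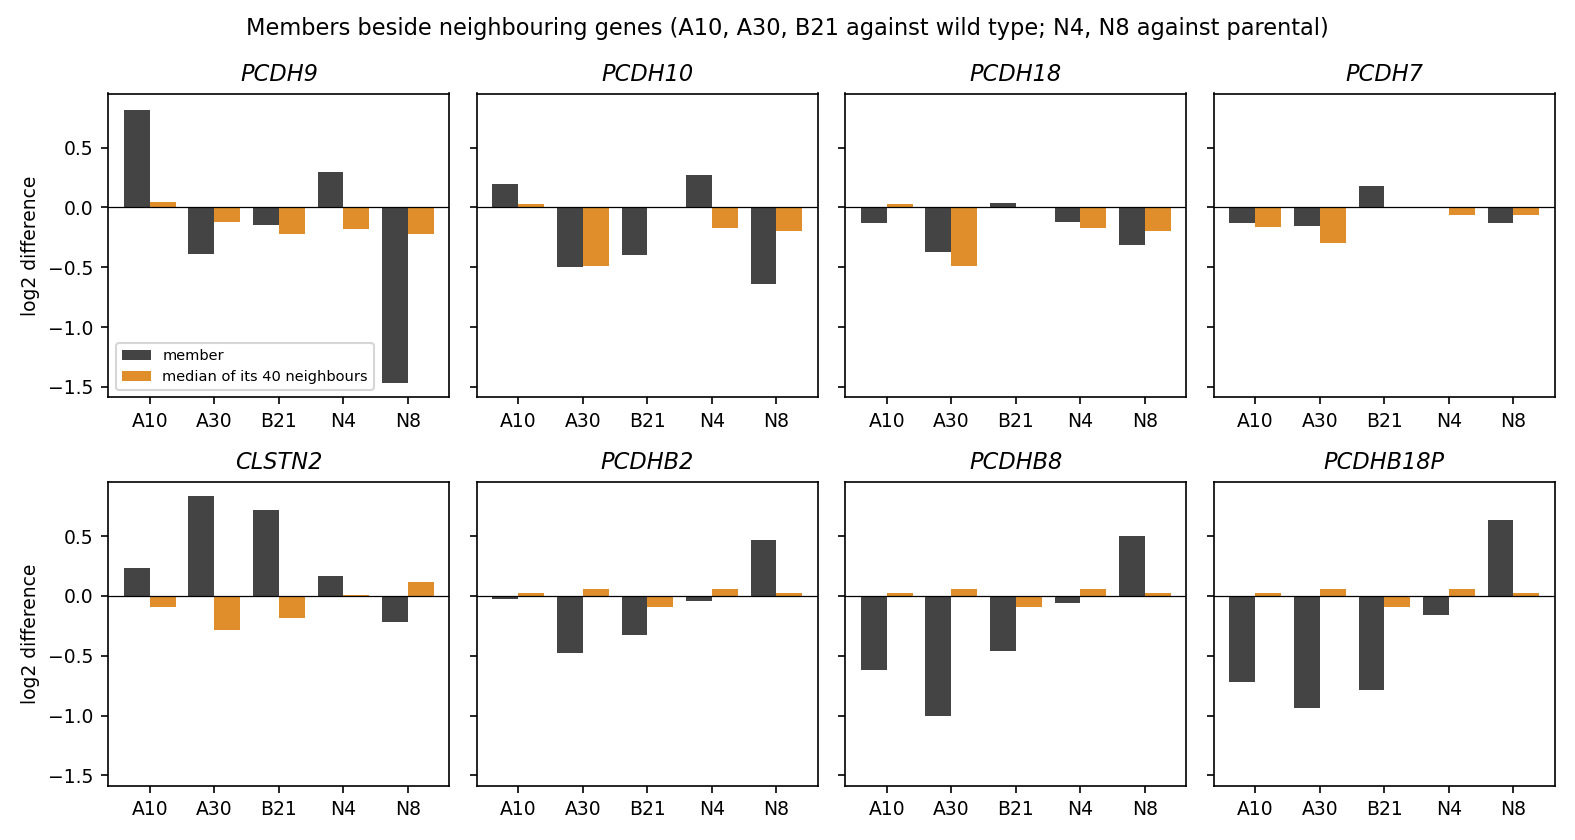
Log2 difference of 8 members (dark bars) beside the median of the 40 nearest tested genes that are not members (orange bars), by line. In A30 the bars of PCDH10 and PCDH18 are close to those of their neighbours (-0.49), while CLSTN2 and the PCDHB genes differ from theirs.

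The 17 untested members never exceeded a signal of 5.94, and 3 of them had an array above the filter. They were 9 PCDHB genes and 8 non-clustered protocadherins. With no filter, PCDHB6 was lower in A30 by -0.81 ± 0.18 (SE, limma adjusted p = 0.00471), with signals of 3.97, 3.83 and 4.12 against 5.10, 4.57 and 4.47 in the parental cells. PCDH19 was lower in B21 by -0.42 ± 0.10 (adjusted p = 0.0204), with signals of 4.85, 4.70 and 4.70 against 5.07, 5.15 and 4.66 in the parental cells. PCDH1 and PCDH11Y were higher in A30 by 0.43 ± 0.13 (adjusted p = 0.0296) and 0.48 ± 0.15 (adjusted p = 0.0352). PCDH11Y is a gene of chromosome Y, and its signals lay between 2.87 and 4.29 on all arrays. Whether these cells carry that chromosome was not examined, so its difference is not read as a change of this gene. These signals lie where background may dominate, and their levels are not set against those of other genes.

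Genes that act with the members were read from 6 fixed lists. Over all tested genes, 29.3% were called in A30, 16.0% in B21, 8.4% in A10, 14.7% in N8 and 0.547% in N4. The list counts are to be read beside these shares. Of the proteins that shape the protocadherin clusters, 11 of 12 were tested, and 5 were called in A30 (3 higher, 2 lower), 5 in B21 (2 higher, 3 lower), 2 in A10 (1 higher, 1 lower), 2 in N8 (both lower) and 0 in N4. SMCHD1, a chromatin protein that silences clustered protocadherins in mice, had line means of 9.56 in the parental cells, 9.58 in N4, 9.23 in N8, 9.75 in A10, 9.96 in A30 and 9.87 in B21. It was higher in A30 by 0.51 ± 0.07 (SE, limma adjusted p = 3.23e-05), in B21 by 0.41 ± 0.07 (adjusted p = 0.000490) and in A10 by 0.29 ± 0.07 (adjusted p = 0.0120), and lower in N8 by -0.33 ± 0.08 (adjusted p = 0.0117). Its order over the lines ran opposite to that of the PCDHB averages at both ends, with N8 lowest and A30 highest. MAU2 (8.49 and 8.94) and NIPBL (10.05 and 10.41) of this list had the same ends. DNMT3B and STAG1 of this list had the ends of the PCDHB averages. N8 was highest (7.49 and 7.86) and A30 lowest (6.90 and 7.22). A relation between any of these genes and the PCDHB signals was not tested.

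STAG1, a cohesin subunit, was lower in A30 by -0.43 ± 0.10 (SE, limma adjusted p = 0.00434) and in B21 by -0.39 ± 0.10 (adjusted p = 0.0134). Neighbouring genes on the chromosome were compared for the members only, so for list genes such as STAG1 shifts shared with a region were not separated. DNMT3B, a DNA methyltransferase, was lower in A30 by -0.44 ± 0.07 (adjusted p = 0.000247), and MAU2, a cohesin loader, was higher there by 0.36 ± 0.05 (adjusted p = 9.36e-05).

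Of the other cadherin-repeat genes, 10 of 22 were tested. Called were 5 in A30 (3 higher, 2 lower, beside 29.3% of all tested genes) and 3 in B21 (all higher, beside 16.0%). In N8, 2 were called (both lower, beside 14.7%), and 0 in A10 (8.4%) and N4 (0.547%). DSC3, a desmosomal cadherin, was higher in A30 by 0.44 ± 0.08 (SE, limma adjusted p = 0.000828) and in B21 by 0.41 ± 0.08 (adjusted p = 0.00319). DSG2, another desmosomal cadherin, was lower in N8 by -0.38 ± 0.10 (adjusted p = 0.0147). The giant cadherin FAT4 was lower in A30 by -0.32 ± 0.09 (adjusted p = 0.00969) and higher in B21 by 0.41 ± 0.09 (adjusted p = 0.00383). Its neighbours on the chromosome were not set beside it, so a shift shared with its region was not separated. FAT3 was higher in A30 by 0.40 ± 0.09 (adjusted p = 0.00333) and lower in N8 by -0.43 ± 0.11 (adjusted p = 0.0175).

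Of the catenins, 5 of 13 were tested. Called were 2 in A30 (JUP higher, PKP4 lower, beside 29.3% of all tested genes) and 1 in B21 (PKP2 higher, beside 16.0%). In N8, 1 was called (JUP higher, beside 14.7%), and 0 in A10 (8.4%) and N4 (0.547%). The same shares stand beside the counts of the lists that follow. Of the cadherin-switching transcription factors, 9 of 13 were tested, with 3 higher in A30, 2 higher in B21, 1 lower in N8, 1 higher in N4 and 0 in A10. SNAI1 and SNAI2, repressors of cadherin genes, were higher in A30 by 0.46 ± 0.09 (SE, limma adjusted p = 0.00110) and 0.23 ± 0.08 (adjusted p = 0.0315), and TWIST2 was higher in B21 by 0.51 ± 0.12 (adjusted p = 0.00902). Of the proteases that cleave cadherins, 8 of 9 were tested, with 2 called in A30 (1 higher, 1 lower), 1 higher in A10, 1 higher in N8 and 0 in B21 and N4. Of the calsyntenin partners, 4 of 7 were tested, with 2 called in A30, 1 in B21 and 0 in the other lines. KLC1, the kinesin light chain that binds calsyntenins, was lower in A30 by -0.48 ± 0.06 (adjusted p = 3.31e-05).

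Markers of other cell types were set beside these results. Of 9 embryonic kidney genes, 6 were tested, and 2 were lower in A10, 1 in A30 and 1 in B21. Of all tested genes, 4.56%, 16.3% and 7.2% were called lower in these lines. No leukocyte or endothelial marker passed the filter (0 of 2 and 0 of 3 with a probe set). Of 4 epithelial markers with a probe set, 3 were tested. KRT8 did not pass in any line, and KRT18 was higher in B21 by 0.71 ± 0.15 (SE, limma adjusted p = 0.00352), with 0.40 ± 0.15 in A30 (adjusted p = 0.0525) and 0.25 ± 0.18 in N8 (adjusted p = 0.384). KRT19 was higher in A30 by 1.18 ± 0.10 (SE, limma adjusted p = 2.38e-07) and in B21 by 1.24 ± 0.10 (adjusted p = 3.05e-07), the lines where CLSTN2 and DSC3 were also higher. It was lower in N8 by -0.44 ± 0.12 (adjusted p = 0.0202). In N4 it differed from the parental cells by as much, -0.44 ± 0.12, without passing (adjusted p = 0.107). LUM, the 1 fibroblast marker tested, was lower in A30 by -0.34 ± 0.11 (adjusted p = 0.0206) and higher in B21 by 0.70 ± 0.11 (adjusted p = 0.000275). Whether these markers move with the members for a shared reason was not tested.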

How the data were processed

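RNA of 18 cultures, 3 for each of 6 HEK lines, was measured on Affymetrix arrays. The precision is limited by the number of arrays within a line and, between genotypes, by the number of lines. The deposited table holds log2 signals of probe sets, which the authors obtained from Affymetrix Expression Console, per the submitters' processing notes. The sources used here give neither its version nor its settings. Values were used as deposited, with a pseudocount of 0. Of 53617 probe sets, 16098 carried 1 gene symbol, 0 carried several, and 37519 stayed unnamed. The filter value of 5.6 is percentile 40 of the values over named probe sets. A gene can pass the filter through a single line with high signal, so counts are over tested members.

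Genotypes were compared on line means, and single lines on arrays with a mean per line, in limma 3.58.1 (R 4.3.3), two-sided, with Benjamini-Hochberg adjustment over 9686 genes and a threshold of 0.05. The fits were tested on simulated data. Neighbours are the 20 tested genes on each side in RefSeq's order (GRCh38.p14) that are not members. Neighbour centring instead used a running window of 41 tested genes, members included, so in the PCDHB cluster it takes in the cluster's own genes. Promoter sequences come from RefSeq in the same build, with 30 of 37 members matched. Values were given for the tested members, for the 5 with the smallest p between genotypes and for up to 4 genes of each list with the widest range. PCDHB6, PCDH19, PCDH1 and PCDH11Y were chosen after their values were seen. The members, lists and tests were chosen with earlier results of these data known. Alternatives changed the filter, normalisation, probe set, variance model, threshold, reference lines and unit of replication, added a replicate block or neighbour centring, and left out each array and line. Fits with replicate 1 as a term, or on replicates 2 and 3 alone, were added after the data were seen. The replicate numbers come from the labels. After line means were removed, every same-numbered pair of arrays correlated over 0.1 in the comparisons of N8 (r = 0.17 to 0.35) and N4 (0.10 to 0.35) with the parental cells, of B21 with the wild-type lines (0.13 to 0.50) and among the wild-type lines (0.10 to 0.51), so there the numbers were taken as pairs. In the A10, A30 and KO-labelled comparisons the lowest pair lay at 0.04, 0.00 and 0.04, and they were not. P-values are from the fit without the block unless the block is named. Figures were drawn with matplotlib 3.10.9 in Python 3.11.15, with pandas 2.3.3 and numpy 2.4.6.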

Additional observations from a re-analysis of the deposited data

Results flagged for a closer look

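Lines that carry the same label differed from each other for 8 members, by limma's F test among A10, A30 and B21 (adjusted p under 0.05 over all tested genes, where 25.8% of them passed). CDH23, highest in A30 and not tested without the A30 arrays, is counted among the 8 and not read as a result. The range of the 3 line means was 1.20 for PCDH9 (adjusted p = 3.41e-05), highest in A10, and 0.69 for PCDH10 (adjusted p = 0.00118), also highest in A10. It was 0.61 for CLSTN2 (adjusted p = 8.76e-05), lowest in A10, 0.35 for CDH23 (adjusted p = 0.0133), highest in A30, without whose arrays it would not have been tested, and 0.34 for PCDH7 (adjusted p = 0.0220), highest in B21. In the PCDHB cluster it was 1.00 for PCDHB13 (adjusted p = 0.0422), 0.79 for PCDHB14 (adjusted p = 0.0448) and 0.46 for PCDHB2 (adjusted p = 0.0415), each lowest in A30. Without 1 array, the number of members called here was 4 without replicate 2 of A30 or replicate 3 of B21, and 5 without replicate 1 of A30, replicate 1 of B21 or replicate 3 of the parental cells. The wild-type lines differed among themselves for 5 members (PCDH9, PCDH10, CLSTN2, PCDHB2 and PCDHB10), where 16.1% of all tested genes passed.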

How the results depend on the processing

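Counts are of members called at an adjusted p under 0.05. The number of all genes called is given beside them. Between genotypes, 0 members were called in most fits. CLSTN2 alone was called with arrays and the line as a random block (75 of 9686 genes) and without the line A10 (72 of 9686). The A10 count of 5 (814 of 9686 genes) became 1 with no filter (510 of 14884) and 2 with neighbour centring (330 of 9686). It was 1 against the parental cells alone (635 of 9686) and 0 against the parental cells and N4 (888 of 9686). With replicate 1 as a term, and on replicates 2 and 3 alone, it became 11 (1335 and 1461 of 9686 genes). The A30 count of 13 (2836 of 9686 genes) became 8 under the stricter filter (2507 of 6693) and 7 at a 1.5-fold minimum (320 of 9686). At that minimum the B21 count of 4 (1551 of 9686) became 2 (195 of 9686). Under the stricter filter fewer members were tested, 11 in place of 20. The count among KO-labelled lines, 8, became 5 under the stricter filter (2368 of 6693 genes) and at the 1.5-fold minimum (512 of 9686). That among wild-type lines, 5, became 3 under each (1578 of 6693 and 265 of 9686). With replicate 1 as a term, N8 had 9 members called (2118 of 9686 genes) and the wild-type lines 9 (2404 of 9686). On replicates 2 and 3 alone the wild-type lines had 8 (1652 of 9686). The replicate block gave 9 in N8 (22.2% of all tested genes) and 9 among wild-type lines (25.1%), where the numbers pair the arrays. It gave 11 in A10 (14.2%), where they share a number only. In B21 it added CLSTN3, and it changed no member's call in N4. PCDH18 in A30 changed sign with neighbour centring, to 0.13.

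Leaving out 1 array gave 1 to 9 members in A10, 9 to 13 in A30, 1 to 5 in B21, 0 to 0 in N4, 3 to 5 in N8, 4 to 9 among KO-labelled lines, 4 to 8 among wild-type lines, 12 to 15 over the 6 lines and 0 to 0 between genotypes. In A10 the count was 1 without its replicate 2 or 3, 9 without its replicate 1, 2 without replicate 1 of the parental cells or replicate 2 of B21, and 3 without replicate 2 of the parental cells or replicate 1 or 3 of N4. In B21 it was 1 without its replicate 2 or 3 (863 and 824 of 9686 genes). Among wild-type lines it was 8 without replicate 1 of A10 (19.2% of all tested genes). All lines share 1 estimate of the spread. An array of a line outside a comparison therefore enters that comparison only through this estimate. What sets these arrays apart was not tested. Signals near 5.6 have no measured background, which limits the members with arrays on both sides of it, among them PCDHB8 in A30, PCDHB10, PCDHB13, PCDHB14, PCDHB16, CDH23 and CLSTN2 in the wild-type lines, and the untested members.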
